A study of Mus musculus with 20 samples.

Results

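The immediate effect of a 1 min swim on gene expression was followed in the amygdala of wild-type (WT) mice, comparing the 5 arrays whose labels read wild type and stress with the 5 that read wild type and control (con). These 10 arrays are chosen by their labels from the 20 of the series, the other 10 being the same pair of conditions in mice without a working serotonin transporter (5-HTT KO). WT mice were males on a C57BL/6 background (C57BL/6J in the methods), born to heterozygous 5-HTT knockout parents, housed singly and 7 months old when tested on an elevated plus-maze shortly before. Stress meant 1 min in water, at 22 °C per the labels, and con meant 1 min in the home cage, after which both groups were anaesthetized and killed. Left and right amygdalae were combined, 1 mouse filled 1 array, and lysis was complete within minutes of the start of the protocol. The values are signals of 28767 probe sets, taken as log2 because of their range, of which 21776 carry 1 gene symbol.

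The amygdala weighs the significance of a stimulus and drives the first autonomic and hormonal answer to it. Neurons that fire strongly let calcium in through NMDA receptors and voltage-gated channels. Calcium and cyclic AMP then activate kinases that phosphorylate the factor CREB on its DNA element, and immediate early genes such as Fos, Arc and the Nr4a nuclear receptors are transcribed without new protein synthesis. The tissue is a mosaic of pallial nuclei rich in excitatory neurons (lateral and basolateral) and striatum-like nuclei rich in GABA neurons (central and medial), so that the outline of a dissection changes the mixture of cells. In such bulk tissue fewer cells of a type and less RNA per cell cannot be told apart.

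Short sequences are shown for some of the immediate early genes, not all of which were called below. The 250 bases before the annotated start of the Nr4a genes and of Plk2 are printed from RefSeq (GRCm38.p6), 5′ to 3′ on the strand of the gene, with every TGACG or CGTCA in capitals. These letters are the core site of the CREB element TGACGTCA, and both strands were searched. Nr4a1 lies on chr15:101266596-101266845 (+), Nr4a2 on chr2:57124004-57124253 (-), Nr4a3 on chr4:48045055-48045304 (+) and Plk2 on chr13:110394794-110395043 (+).
Nr4a1: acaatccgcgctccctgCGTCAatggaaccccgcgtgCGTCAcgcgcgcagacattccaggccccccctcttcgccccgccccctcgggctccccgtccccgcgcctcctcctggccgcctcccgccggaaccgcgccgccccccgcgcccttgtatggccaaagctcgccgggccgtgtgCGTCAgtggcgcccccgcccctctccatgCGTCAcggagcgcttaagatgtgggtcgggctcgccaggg
Nr4a2: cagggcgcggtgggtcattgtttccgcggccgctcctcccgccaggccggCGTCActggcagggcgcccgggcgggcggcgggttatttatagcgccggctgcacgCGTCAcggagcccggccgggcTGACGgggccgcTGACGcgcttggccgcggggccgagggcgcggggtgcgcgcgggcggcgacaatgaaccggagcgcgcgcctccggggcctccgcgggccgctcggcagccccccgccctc
Nr4a3: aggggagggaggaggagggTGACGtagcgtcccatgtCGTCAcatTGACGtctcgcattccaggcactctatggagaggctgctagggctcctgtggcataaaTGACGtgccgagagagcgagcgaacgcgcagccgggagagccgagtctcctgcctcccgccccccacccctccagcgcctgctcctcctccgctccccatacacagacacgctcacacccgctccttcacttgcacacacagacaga
Plk2: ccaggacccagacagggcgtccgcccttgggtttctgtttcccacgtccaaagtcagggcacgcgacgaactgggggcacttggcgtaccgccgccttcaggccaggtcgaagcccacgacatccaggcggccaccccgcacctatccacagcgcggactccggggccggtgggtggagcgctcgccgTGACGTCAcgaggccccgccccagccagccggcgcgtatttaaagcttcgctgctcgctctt

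Each Nr4a window held 4 core sites, and Plk2 alone of the 4 held the full element, 62 bases before its start, which counts as 2 overlapping core sites. Over windows that run from 250 bases before to 50 after each start, TGACGTCA stood in 1.79% of 32851 promoters, in 5 of 59 promoters of the immediate early genes (8.47%) and in 1 of 67 promoters of the genes called below (1.49%). The core site stood in 20.8%, 62.7% and 19.4% of them. The 59 promoters covered 42 of the 55 immediate early genes, and the 67 covered 45 of the called genes. A gene with several starts counted more than once. Ptgs2, an immediate early gene called below but not printed, held 1 core site in that window and no full element. The element AAAGGTCA, to which Nr4a receptors bind, stood in 1.51% of all promoters and in 0 of the 67. A match of letters is a description of the window and does not show that a factor is bound there.

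The probe set of Mir568 was called as well, and its mature product is printed with the seed, bases 2 to 8, in capitals. The microRNA comes from chr16:43640665-43640684 (+), within the span of the gene Tigit in the same RefSeq build, and of 1738 mature mouse microRNAs it was the only 1 with this seed.
mmu-miR-568: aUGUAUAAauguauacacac
The array measures RNA at the locus, and whether the probes read the mature 20 bases or a longer transcript was not tested.

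At 69 probe sets the group means differed more than 1.5-fold and limma (4 group means over 20 arrays) gave an unadjusted p under 0.05. The word called below means these limits, which follow the methods, with limma in place of the t-test. Of all probe sets 64 (0.222%) were called higher in stress and 5 (0.0174%) lower, with a median size of 0.74 on the log2 scale among the higher. After quantile normalization the split was 47 and 19, and with array medians centred it was 50 and 18. None passed an adjusted p under 0.05 in limma or in the methods' t-test, and 1019 (limma) and 518 (t-test) had an unadjusted p under 0.05. Both counts are under 0.05 of the 28767 probe sets, the share to be reached where no probe set differs. With the replicate numbers as a block 75 were called higher and 11 lower. A list of probe sets for this comparison accompanies the study, and is the list meant below. It was chosen on these arrays and is no independent evidence of its direction. Of its 38 members 37 were called here, Nr4a2 being the other. Values leaned upward over the whole array, where 62.8% of probe sets were higher in stress with a median difference of 0.03.

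**Figure D1:**
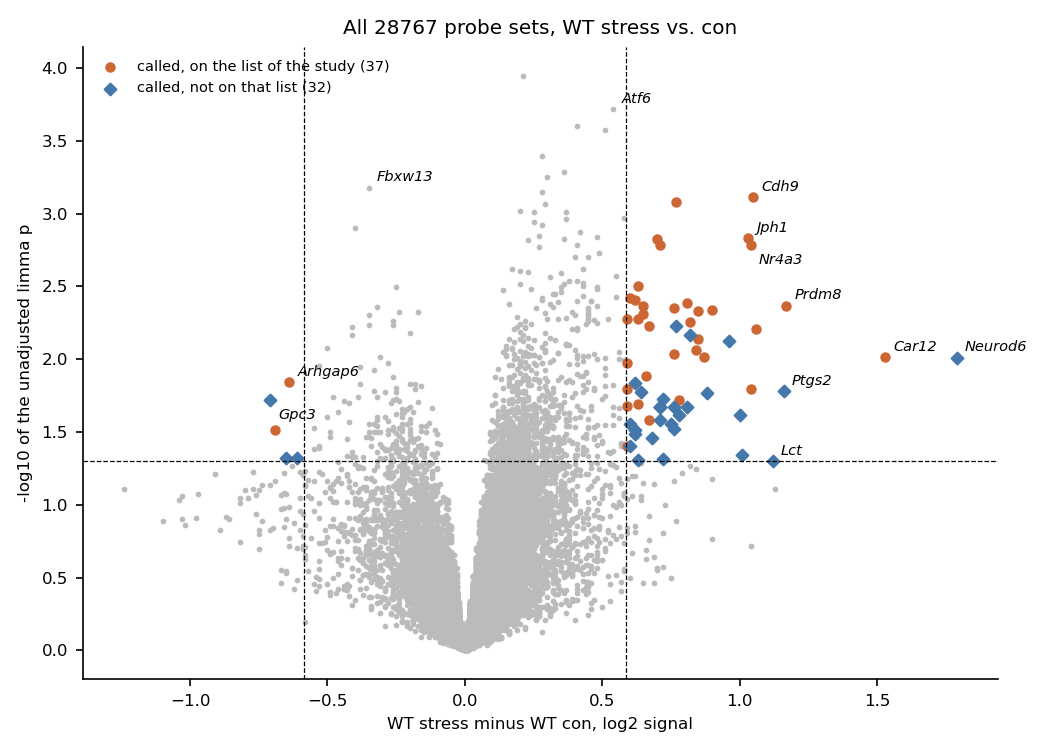
Difference of mean log2 signal between WT stress and con (x axis) against -log10 of the unadjusted limma p (y axis) for all 28767 probe sets. Coloured symbols are the 69 called probe sets, 37 on the list (circles) and 32 not on it (diamonds), and the dashed lines mark a fold of 1.5 and a p of 0.05. Neurod6 has the largest called difference (1.79).

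Of the 69 called probe sets, 9 were called under all 26 other settings tried, namely those of Cdh9, Jph1, Nr4a3, Chrm1, Mical2, Sema3e, Robo2 and both of Ano3. All of these settings drew on the same arrays. In the paper's real-time PCR of this comparison, Cdh9 and Robo2 were also higher but did not reach significance. In con, Cdh9 stood at 6.81, 6.56, 6.74, 6.40 and 6.61, and in stress at 6.99, 7.47, 7.43, 8.31 and 8.17. Cdh9, a type II cadherin of synaptic adhesion, was thus higher in every stress array than in any con array, by 1.05 (SE 0.26, exact permutation p = 0.00794, the smallest that 5 against 5 arrays allow). For Jph1 the signals were 7.88, 7.84, 7.53, 7.66 and 7.52 in con and 8.07, 8.34, 7.89, 9.89 and 9.39 in stress. Jph1, a junctophilin that holds calcium stores against the plasma membrane, also separated the groups, though stress replicates 4 and 5 stood far above the other 3. Its second probe set, with 7.58, 7.41, 7.51, 7.12 and 7.33 in con and 7.64, 7.73, 7.51, 9.03 and 8.90 in stress, gave 0.77 (SE 0.25). That call was lost without stress replicate 4 (0.56). Nr4a3 measured 7.06, 7.22, 7.52, 6.43 and 6.46 in con replicates 1 to 5 and 7.46, 7.70, 7.53, 9.01 and 8.18 in stress replicates 1 to 5. Nr4a3, an orphan nuclear receptor, was higher in 5 of 5 numbered pairs, and con replicate 3 was above stress replicate 1 alone (1.04, SE 0.28, exact permutation p = 0.0159).

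The other genes of this group differed by 0.82 to 1.06. Chrm1 had signals of 8.45, 7.42, 7.76, 7.18 and 7.31 in con and of 8.44, 8.29, 8.37, 9.12 and 8.41 in stress. Chrm1, the M1 muscarinic receptor, was higher in 4 of 5 pairs by 0.90 (SE 0.28), and con replicate 1 lay among the stress arrays. For Robo2 the signals were 9.14, 8.62, 8.39, 7.83 and 7.89 in con and 9.15, 9.55, 9.20, 9.28 and 8.88 in stress. Robo2, a receptor for Slit ligands, was higher in 5 of 5 pairs (0.84, SE 0.29, exact permutation p = 0.0159), with the same con array overlapping. Sema3e, a secreted semaphorin, was higher by 0.82 (SE 0.26) in 4 of 5 pairs. Mical2, an enzyme that takes actin filaments apart, was higher by 0.85 (SE 0.26, exact permutation p = 0.0635) and in 3 of 5 pairs. The second Ano3 probe set measured 9.36, 8.51, 8.23, 7.93 and 7.86 in con replicates 1 to 5 and 9.32, 9.42, 9.31, 9.45 and 9.16 in stress replicates 1 to 5. Ano3, of the anoctamin family of membrane proteins, differed by 0.96 (SE 0.32) there and by 1.06 (SE 0.34) at its other probe set, with 5 nearly equal stress values and a con group that spread from 7.86 to 9.36.

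**Figure D2:**
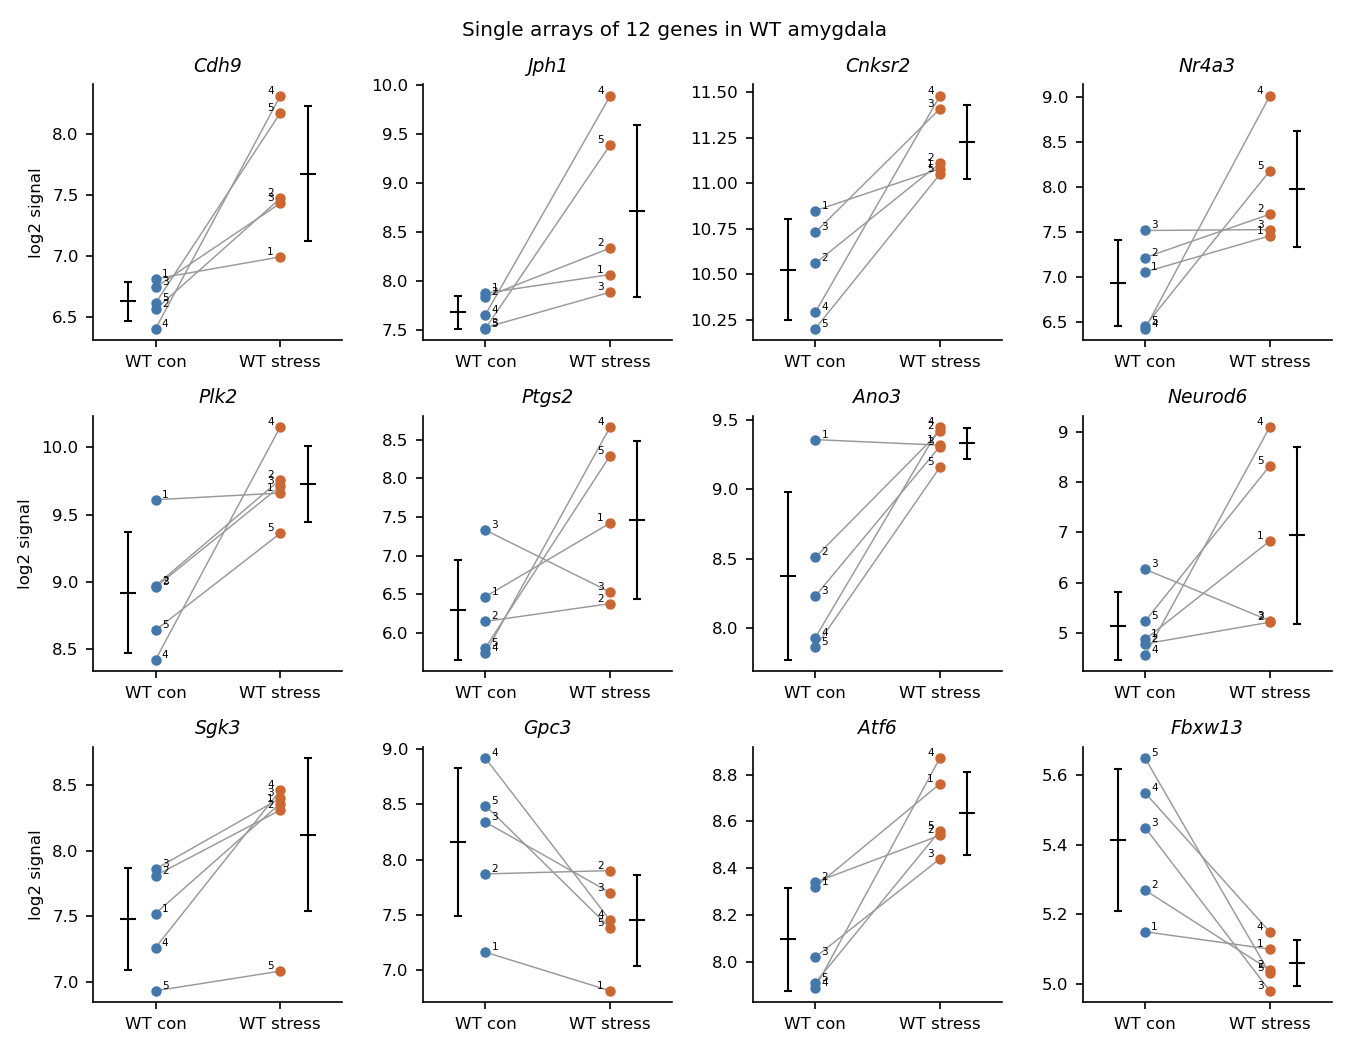
Log2 signal (y axis) of 12 genes in the 5 WT con and 5 WT stress arrays (x axis). Points are single arrays marked with their replicate number, grey lines join equal numbers, and black marks are the mean ± SD of 5 arrays. Cdh9, Jph1, Cnksr2, Atf6 and Fbxw13 separate the groups, and stress replicates 4 and 5 are the highest points of Jph1, Ptgs2 and Neurod6.

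Further members of the list were described at the level of single mice. The 5 con arrays gave 10.85, 10.56, 10.73, 10.29 and 10.20 for Cnksr2, against 11.08, 11.11, 11.41, 11.48 and 11.05 in the 5 stress arrays. Cnksr2, a scaffold between Ras signalling and the postsynaptic density, had con and stress arrays that did not overlap (0.70, SE 0.19), and was at 0.58, under the fold threshold, only without both arrays numbered 4, of the 15 sets of left-out arrays. For Glt8d2 the signals were 5.92, 5.92, 6.07, 5.75 and 5.92 in con and 6.81, 5.92, 6.64, 7.37 and 6.36 in stress. Glt8d2, a gene of the glycosyltransferase family, kept the call without every array but stress replicate 4 (0.52). Mir568 measured 7.06, 7.73, 7.79, 7.54 and 7.44 in con replicates 1 to 5 and 7.41, 8.02, 8.43, 8.56 and 8.28 in stress replicates 1 to 5. Mir568 was higher in 5 of 5 pairs (0.63, SE 0.18), although con replicates 2 to 5 lay above stress replicate 1. Its call was lost without con replicate 1 or stress replicate 3 or 4. Probe set 10481349, which names several genes, was higher by 0.77 (SE 0.19) in that list. Prdm8 (1.17), Mlip (0.87), Lmo3 (0.76), Slit3 (0.65) and Lmo7 (0.59) separated the groups completely and make up, with Cdh9, Jph1 and Cnksr2, the 8 of the 64 that did so. Car12, a carbonic anhydrase, had the largest difference of the list (1.53, SE 0.53). Without both arrays numbered 4 it was 0.88 and no longer called. The calls of Plk2, Lmo3, Mlip, Grin2a and Inka2 were among the others lost there, and 17 of all 69 calls were kept.

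Among the 32 called probe sets that the study did not list, 29 were higher and 3 lower, and 31 of them name 28 genes. The largest difference belonged to a transcription factor of pallial excitatory neurons. In con, Neurod6 stood at 4.88, 4.79, 6.27, 4.56 and 5.24, and in stress at 6.83, 5.22, 5.25, 9.09 and 8.32. Neurod6 was higher by 1.79 (SE 0.62, exact permutation p = 0.0635), a value carried by stress replicates 4, 5 and 1, while stress replicates 2 and 3 lay inside the range of con. Without both arrays numbered 4 the difference was 1.11 and no longer called. For Zbtb18 the signals were 8.77, 8.74, 8.88, 8.55 and 8.85 in con and 9.38, 8.78, 8.67, 10.92 and 10.43 in stress. Zbtb18, a zinc finger repressor of the same neurons, followed that order (0.88, SE 0.33), and its call was lost without stress replicate 4 (0.56) or 5 (0.68). Neurod2, a related factor, was at the threshold with 0.63 (SE 0.30, exact permutation p = 0.119), and without any array but con replicate 3, stress replicate 2 or stress replicate 3 the call was lost.

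Calcium-binding proteins and ion channels made up another group of the calls outside the list. Doc2b measured 9.23, 8.98, 8.30, 8.20 and 8.20 in con replicates 1 to 5 and 8.29, 9.52, 9.52, 9.94 and 9.46 in stress replicates 1 to 5. Doc2b, a calcium sensor of vesicle release, was higher by 0.76 (SE 0.30) with stress replicate 1 down among the con arrays, and its call was lost without con replicate 4 (0.67), con replicate 5 (0.67) or stress replicate 4 (0.61). Cabp7 (1.00, SE 0.41) and Hpca, or hippocalcin (0.78, SE 0.32), both neuronal calcium-binding proteins, had their highest values in stress replicate 4 (9.32 and 11.22). Their differences were 0.57 and 0.54 without it, and both calls were lost. Cabp7 lost its call too without con replicate 2 (0.92) or stress replicate 5 (0.79), and Hpca without con replicate 2 (0.66), 3 (0.71) or 5 (0.69). Cacna2d3, an auxiliary subunit of calcium channels, was higher in 5 of 5 pairs by 1.01 (SE 0.47), although con replicate 1, at 10.19, was exceeded only by stress replicates 1 and 3. Kcnj2, an inward rectifier of potassium, differed by 0.71 (SE 0.29), with a con range of 5.52 to 7.31 and a stress range of 6.66 to 7.35. The calls of Cacna2d3 (0.69 to 1.36) and Kcnj2 (0.54 to 0.99) were lost without any of 6 and of 5 single arrays.

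Signalling enzymes followed. Ptgs2 had signals of 6.47, 6.15, 7.33, 5.74 and 5.81 in con and of 7.42, 6.38, 6.53, 8.66 and 8.29 in stress. Ptgs2, the inducible cyclooxygenase and an immediate early gene, was higher by 1.16 (SE 0.44, exact permutation p = 0.0635), and con replicate 3 exceeded stress replicates 2 and 3. Its call was lost without stress replicate 4 (0.86) or 5 (0.95). For Sgk3 the signals were 7.52, 7.81, 7.86, 7.26 and 6.93 in con and 8.36, 8.31, 8.40, 8.46 and 7.08 in stress. Sgk3, a kinase related to Sgk1, was higher in 5 of 5 pairs (0.64, SE 0.24), with 4 stress arrays above every con array and stress replicate 5 below 4 of them. The call was lost without con replicate 5 (0.51) or stress replicate 1 (0.58), 3 (0.57) or 4 (0.56). Ak5 measured 8.55, 8.76, 8.35, 8.47 and 8.44 in con replicates 1 to 5 and 8.62, 8.74, 8.74, 9.90 and 9.69 in stress replicates 1 to 5. Ak5, an adenylate kinase of brain, was higher by 0.62 (SE 0.23), nearly all of it from stress replicates 4 and 5, without either of which the call was lost (0.43 and 0.49), as it was without con replicate 3 (0.58).

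Scaffold, ring finger and unassigned transcripts had similar patterns. The 5 con arrays gave 7.39, 7.50, 7.66, 7.76 and 7.55 for Iqgap2, against 8.11, 7.55, 7.55, 9.76 and 8.94 in the 5 stress arrays. Iqgap2, a scaffold at the actin cortex, was higher by 0.81 (SE 0.32) and lost the call without stress replicate 4 (0.46) or 5 (0.67). For M5C1000I18Rik the signals were 6.32, 6.75, 6.20, 6.19 and 6.15 in con and 6.70, 6.49, 6.54, 8.12 and 7.86 in stress. The transcript M5C1000I18Rik was higher by 0.82 (SE 0.27, exact permutation p = 0.0397), and lost the call without stress replicate 4 (0.57). Rnf112 measured 9.17, 8.91, 8.14, 8.30 and 8.91 in con replicates 1 to 5 and 9.88, 8.62, 8.91, 9.67 and 9.93 in stress replicates 1 to 5. Rnf112, a ring finger protein of brain, was higher by 0.72 (SE 0.28) and lost the call without con replicate 3 (0.58) or 4 (0.62) or stress replicate 1 (0.60) or 5 (0.58). Gm10590 was represented by 4 probe sets with nearly the same value in every array, so that its 4 calls amount to 1 uncertain measurement. In con, the first of these stood at 8.61, 8.71, 8.75, 8.11 and 8.76, and in stress at 10.57, 8.62, 9.49, 8.74 and 9.04. Its difference of 0.71 (SE 0.28) rested on stress replicate 1 (0.39 without it) and was lost too without con replicate 4 (0.59).

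Of the remaining calls outside the list, Robo3, a relative of Robo2, was higher by 0.75, Itga8, an integrin subunit, by 0.76, Nell2, a secreted neuronal glycoprotein, by 0.68, Adarb2, of the RNA editing family, by 0.62 and Plekha2, a pleckstrin homology protein, by 0.62. Lct, the lactase gene, was higher by 1.12, Il16 by 0.72 and Olfml2b by 0.60. In the last 3 genes stress replicates 1, 2 and 3 lay between 5.66 and 6.25, none above the highest con array, and only replicates 4 and 5 were above it. Without stress replicate 4 these differences were 0.63, 0.34 and 0.27. Probe set 10606186, which has no symbol in the annotation used here, was higher by 0.60. Each of these 9 lost its call without at least 3 single arrays.

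Lower signals after stress were few. For Gpc3 the signals were 7.16, 7.87, 8.34, 8.92 and 8.49 in con and 6.81, 7.90, 7.70, 7.45 and 7.38 in stress. Gpc3, a glypican of the cell surface, differed by -0.71 (SE 0.27, exact permutation p = 0.0952), with the range of con from 7.16 to 8.92 taking in 4 of the 5 stress values, and the call was lost without con replicate 4 (-0.52) or stress replicate 1 (-0.55). Tmem255a (-0.65, SE 0.30) and Dnah3, a dynein heavy chain of motile cilia (-0.61, SE 0.29), were called, with exact permutation p = 0.111 and p = 0.103. Without stress replicate 1 Tmem255a was at -0.39, and without stress replicate 3 Dnah3 was at -0.44, both no longer called, and the calls were lost too without other single arrays (6 and 8 arrays in all). Another Dnah3 probe set, the brightest of the gene, gave -0.59 (SE 0.30), and the lowest difference among the others was -1.03 (SE 0.57), neither of them called. On the study's list, Arhgap6 differed by -0.64 (SE 0.24), and probe set 10464030 by -0.69 (SE 0.30). That list names the probe set Adra2a, while it has no symbol in the annotation used here. It measured 6.47, 7.27, 7.93, 7.78 and 7.02 in con replicates 1 to 5 and 6.11, 6.69, 6.68, 6.79 and 6.72 in stress replicates 1 to 5. Its call was lost without con replicate 3 (-0.53), con replicate 4 (-0.57) or stress replicate 1 (-0.57). The paper's real-time PCR of this comparison also had Adra2a lower.

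Complete separation of the 10 arrays was counted as well, whatever the size of the difference. At 61 probe sets (0.212%) every stress array was above every con array, and at 13 (0.0452%) below, with median differences of 0.23 and -0.19. In the two-sided exact permutation test, complete separation has p = 0.00794. Both counts together are under 0.00794 of the 28767 probe sets, the share to be reached where no probe set differs. Complete separation is therefore a description of the arrays, and no response to stress is read from these counts. Of the 61, 53 lay under the fold threshold. Atf6 had signals of 8.32, 8.34, 8.02, 7.89 and 7.91 in con and of 8.76, 8.54, 8.44, 8.87 and 8.56 in stress. Atf6, a transcription factor that answers unfolded protein in the endoplasmic reticulum, had the largest difference of these 53 among probe sets with 1 symbol (0.54, SE 0.11) and kept that difference between 0.48 and 0.60 without any single array. Grik4, a kainate receptor subunit, separated with 0.37 (SE 0.10), and Inhba, which encodes the activin A subunit, with 0.45 (SE 0.18).

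In the other direction, Fbxw13, an F-box gene, separated downward. For Fbxw13 the signals were 5.15, 5.27, 5.45, 5.55 and 5.65 in con and 5.10, 5.04, 4.98, 5.15 and 5.03 in stress. The difference was -0.35 (SE 0.09), at signals in the lower part of the array's range of 4.09 to 14.24. Adcyap1r1 lay between 9.93 and 10.19 in the con arrays and between 9.53 and 9.92 in the stress arrays. Adcyap1r1, the receptor of the stress peptide PACAP, had a difference of -0.26 (SE 0.10), with stress replicate 3 just below con replicate 2. Ccdc121 (-0.28), Fam207a (-0.25), Mafk, a small Maf transcription factor (-0.20), and Hspa12b, of the Hsp70 family (-0.18), also separated downward. Among the smallest p of negative sign were further Nkain4 (-0.40), Bex3 (-0.32), Ifit3, an interferon-induced gene (-0.24), and Smc1b (-0.17), none of which reached the fold threshold.

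Higher signals in 5 of 5 numbered pairs occurred at 875 probe sets (3.04%). Of the 64 called higher, 25 were higher in 5 pairs, 34 in 4 and 5 in 3, and this count shares its arrays with the criterion, so nothing is read from it. In 29 of the 64, stress replicates 4 and 5 were the 2 highest stress arrays (16 of the 29 outside the study's list and 13 of the 35 on it). In 49 of the 64 the lowest con array was replicate 4 or 5, and in 36 the highest was replicate 1. These counts too share their arrays with the criterion. No share over all probe sets stands beside them, so nothing is read from them.

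**Figure D3:**
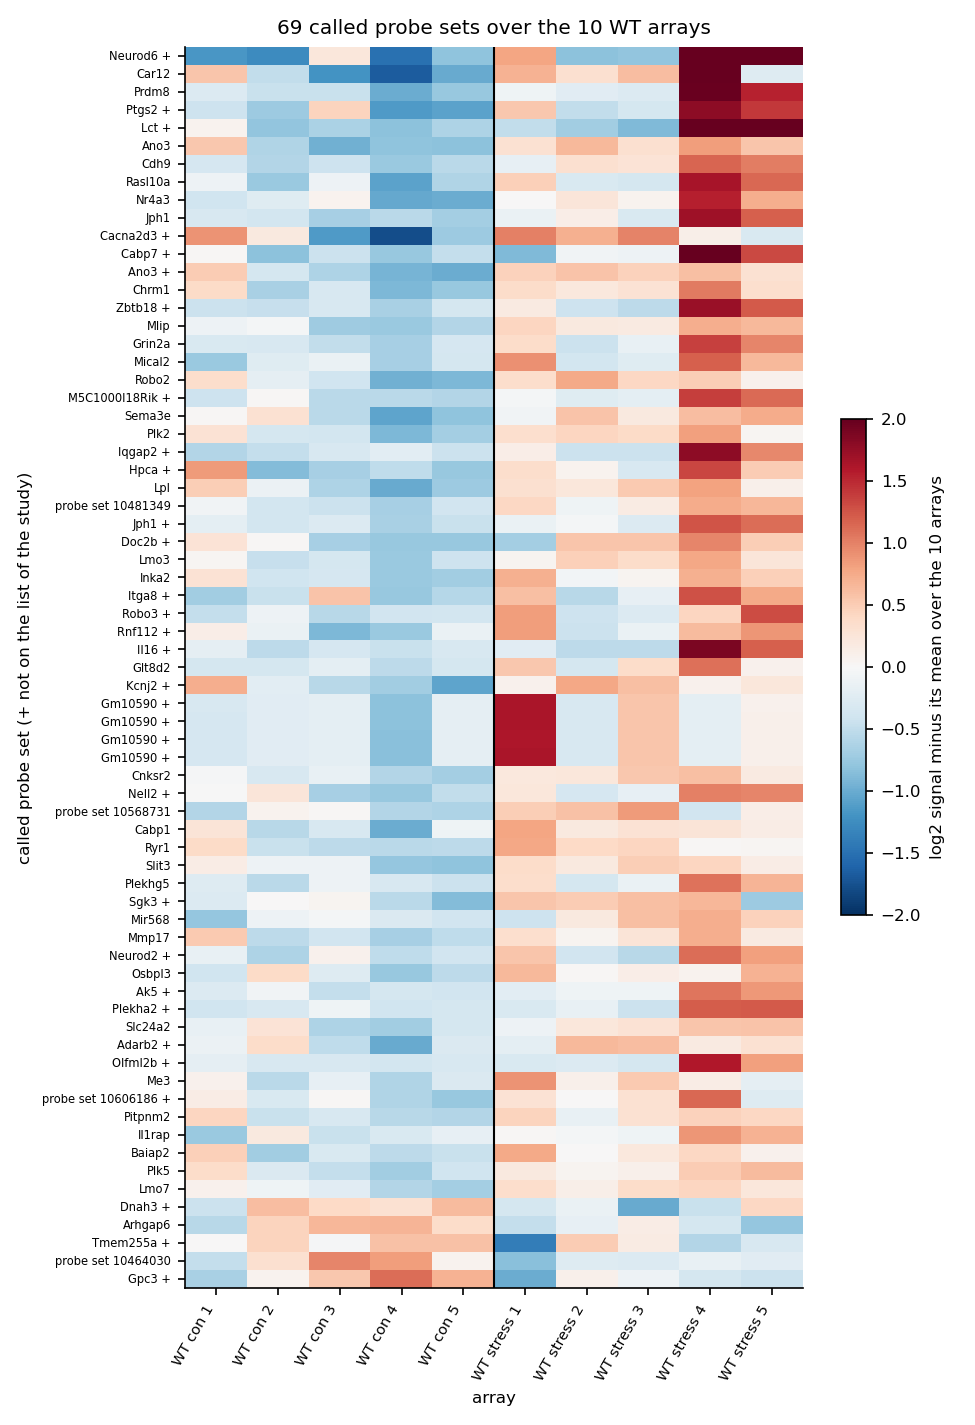
The 69 called probe sets (y axis, ordered by difference, + marks those not on the study's list) over the 10 WT arrays (x axis). Colour is the log2 signal minus its mean over the 10 arrays, with the darkest shades also standing for values beyond the ends of the scale. The columns of stress replicates 4 and 5 are darkest in many rows, and con replicate 1 is light or red in several.

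Immediate early genes lay on both sides of 0. Of 55 measured genes, 1 probe set each, 30 were higher and 25 lower, with a median difference of 0.02, equal to the 0.02 of all 19933 genes, of which 61.4% were higher. An unadjusted limma p under 0.05 was reached by 4 upward and 1 downward, against 3.07% and 0.602% of all genes, and 3 were called (Ptgs2, Nr4a3 and Plk2, a polo-like kinase of synaptic scaling). The 5 con arrays gave 9.61, 8.97, 8.96, 8.42 and 8.64 for Plk2, against 9.66, 9.76, 9.71, 10.15 and 9.36 in the 5 stress arrays. Plk2 was higher in 5 of 5 pairs (0.81, SE 0.25, exact permutation p = 0.0159) and con replicate 1 overlapped the stress arrays. Inhba was the fourth upward gene, and Vgf (-0.25) the downward one. Members of lists named below for their p alone, like these, were chosen after their values were seen.

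The classical early genes, named after their values were seen, had differences near 0. For Fos the signals were 6.49, 6.00, 6.00, 5.79 and 5.87 in con and 6.39, 6.09, 5.87, 5.80 and 5.71 in stress. Fos therefore overlapped throughout (-0.06, SE 0.19). Arc (-0.03, SE 0.24), Npas4 (-0.03, SE 0.20), Junb (0.01, SE 0.12) and Egr1 (0.06, SE 0.25) were likewise within their spread. In the Nr4a family, whose windows are printed above, the order was Nr4a3 (1.04), Nr4a2 (0.79, SE 0.40) and Nr4a1 (0.33, SE 0.30). Nr4a2 measured 6.58, 7.32, 7.30, 7.0 and 7.10 in con replicates 1 to 5 and 8.11, 7.29, 7.06, 8.19 and 8.62 in stress replicates 1 to 5. Stress replicates 1, 4 and 5 were above all con arrays for Nr4a2 and the other 2 were not (exact permutation p = 0.0714), and it was called with the replicate block on the 10 WT arrays alone but not with the block on all 20. In con, Inhba stood at 6.73, 6.56, 6.70, 6.07 and 6.36, and in stress at 7.17, 6.91, 7.04, 6.77 and 6.76. Inhba had stress replicates 1, 2 and 3 highest, unlike Nr4a2.

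Polo-like kinases and LIM-only proteins had 8 of 12 genes higher and 4 called, Plk2, Lmo3, Plk5 (0.59) and Lmo7, and a median of 0.03. Of all genes 61.4% were higher, and of all probe sets 0.222% were called higher. All 4 called genes are on the study's list, which was chosen on these arrays. The gene list was drawn up with earlier results of these data known, so nothing is read from its count of calls.

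Calcium handling genes contained single calls among members near 0. In the store release list 10 of 17 genes were higher (median 0.02), and Jph1 and Ryr1, a ryanodine receptor (0.66, SE 0.24), were called, while Stim2 (0.40) reached the p alone. Of 12 extrusion genes 8 were higher (median 0.08), with Slc24a2 called (0.62) and Slc8a1 lowest (-0.47). Calcium sensors and buffers had 23 of 36 higher (median 0.04), with Cabp7, Hpca and Cabp1 (0.67) called and Calb2, or calretinin, lowest at -0.86 (SE 0.54). Voltage-gated calcium and sodium channels had 24 of 34 higher (median 0.06), 6 upward with a p under 0.05, among them Cacna1c (0.51) and Cacna1h (0.45), 1 downward (Cacna2d2, -0.46), and 1 call (Cacna2d3). Cacng5 (-0.74) was not called, but was with the replicate block over 20 arrays, where its SE was 0.34 in place of 0.39, and in several other settings, among them without con replicate 1 (-1.01).

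Receptor lists were close to the median of all genes. Ionotropic glutamate receptors had 10 of 16 higher (median 0.03) and 1 call, Grin2a, the NMDA receptor subunit GluN2A (0.85, SE 0.28), against -0.40 for Grin2d, while Grik4 reached the p upward and Grik3 (-0.31) downward. Metabotropic glutamate receptors had 2 of 7 higher (median -0.05), and GABA-A subunits 6 of 14 (median -0.08), with 0 called in both, the lowest being Grm8 (-0.33) and Gabrg1 (-0.50). Acetylcholine receptors had 15 of 21 higher (median 0.09), where Chrm1 was called, Chrna7 (0.41) reached the p alone, and Chrm2 was at -0.46. Of the serotonin genes 9 of 21 were higher (median -0.03), none was called, and Htr1a (-0.48) and Htr7 (-0.47) had the lowest values. Slc6a4 itself, the transporter gene, differed by -0.22 (SE 0.23). Only 2 of 9 adrenergic receptor genes could be followed with the annotation used here, so nothing is read from that list. Adra2a, described above as probe set 10464030, is not 1 of those 2.

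Potassium channels had 37 of 57 genes higher (median 0.07), and Kcnj2 was called. Kcnj4 (0.84, SE 0.41) and Kcnh3 (0.82, SE 0.40) were not called, but were with the replicate block over 20 arrays, where their SE was 0.39 and 0.37, and in several other settings, among them without con replicate 1 (1.22 and 1.14). Vesicle release genes had 28 of 40 higher (median 0.08), 5 upward at a p under 0.05, among them Synpr (0.58), 1 downward (Syt5, -0.26), and Doc2b called. Axon guidance ligands had 15 of 39 higher (median -0.06), with Sema3e and Slit3 called and Efnb3 (-0.33) at a p under 0.05 downward, and their receptors 22 of 36 (median 0.06), with Robo2 and Robo3 called. Cadherins had 8 of 22 higher (median -0.02) and Cdh9 as the single call, with Cdh7 (-0.36) and Cdh18 (-0.35) lowest and Cdh22 (-0.31) at a p under 0.05. The guidance and adhesion calls were single members of lists whose other genes lay on both sides of 0.

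Hormone and temperature genes gave no call. Of 23 glucocorticoid-responsive genes 12 were higher (median 0.02), and 0 were called, Zbtb16 (0.54) and Sgk1 (0.43) reaching the p alone, while Mt2, a metallothionein, was at -0.37 (SE 0.24) and Fkbp5 at 0.06 (SE 0.18). Heat-shock and cold-inducible genes had 6 of 17 higher (median -0.01), with Hspe1 (-0.20) at a p under 0.05 and Cirbp, a cold-inducible RNA-binding protein, at -0.22. Stress peptides, steroid receptors and their partners had 21 of 39 higher (median 0.02) and 0 called. Cck had the highest value there (1.13, SE 0.61, exact permutation p = 0.151), Nts, or neurotensin, the lowest (-0.76, SE 0.46), Tac2 was at 0.72 (SE 0.63), and Npy1r (0.47), Oprl1 (-0.35) and Adcyap1r1 reached the p alone.

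**Figure D4:**
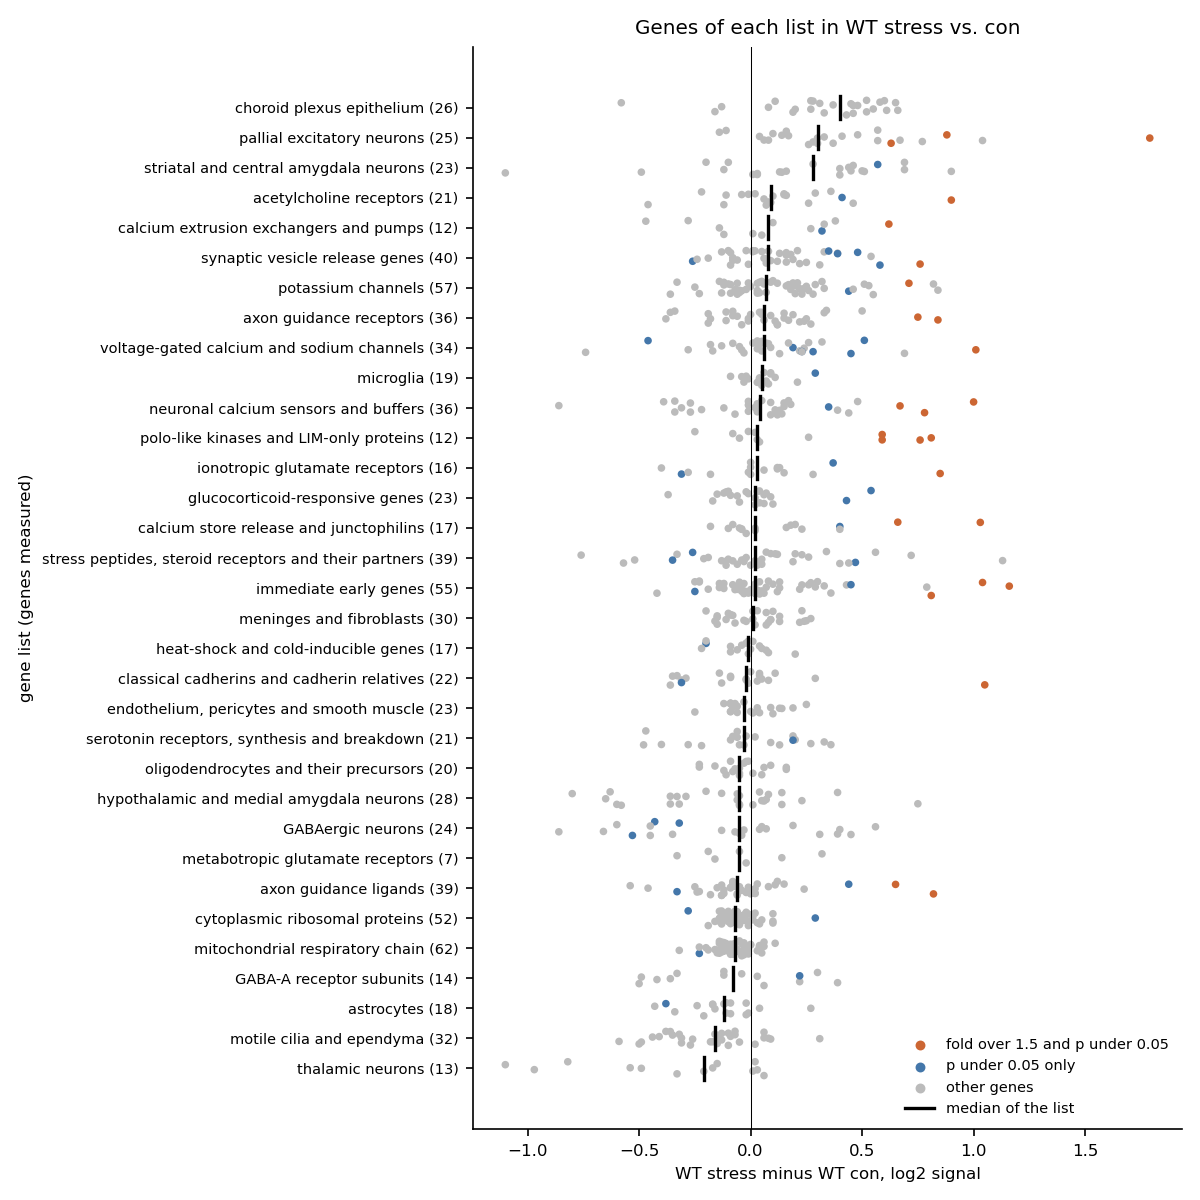
Difference of WT stress minus con in log2 signal (x axis) for the genes of 33 lists (y axis, number measured in brackets). Points are genes, black bars are list medians, orange marks called genes and blue those with only a p under 0.05. All called genes lie to the right of the list medians, which stay between -0.21 and 0.40.

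Markers of cell types differed between arrays within each group. Pallial excitatory neuron genes were higher in stress for 23 of 25 (median 0.30, 0.24 to 0.40 without single arrays), with 3 called (Neurod6, Zbtb18 and Neurod2), and Slc17a7, a vesicular glutamate transporter, had 1.04 (SE 0.77). A score, the mean of the centred log2 signals of a list, was for these genes -0.35, -0.09, 0.00, -0.32 and -0.26 in con and 0.24, -0.24, -0.26, 0.67 and 0.62 in stress. Stress replicates 4, 5 and 1 were therefore above all con arrays and the other 2 were not. The 61 probe sets called higher that are not pallial markers averaged -0.03, -0.28, -0.37, -0.73 and -0.55 in con and 0.34, 0.04, 0.16, 0.87 and 0.55 in stress, highest in the same stress arrays. In con the orders differed, as con replicate 1 was highest in this mean (-0.03) and lowest in the pallial score (-0.35). Con replicate 3 was highest in that score (0.00) at a mean of -0.37. These probe sets were chosen for their higher values in the same stress arrays, and the part of the neuron mixture in these calls was not tested.

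Striatal and central amygdala neuron genes had 18 of 23 higher (median 0.28), none called, but the median ran from 0.11 without con replicate 5 to 0.56 without con replicate 1. Their score was 0.86, -0.03, -0.38, -0.45 and -0.52 in con and 0.54, 0.53, 0.60, -0.56 and -0.58 in stress. Con replicate 1 and stress replicates 1, 2 and 3 were thus high, and stress replicates 4 and 5 below the lowest con. Prkcd, a kinase of central amygdala and thalamic neurons, spanned 7.58 to 10.72 over both groups (-1.10, SE 0.69, exact permutation p = 0.214), and Ppp1r1b had 0.90 (SE 0.63). Rspo2, a marker of basolateral neurons, was between 5.70 and 7.20 in all arrays. GABAergic genes had 9 of 24 higher (median -0.05), and Slc32a1 (-0.53), Gad2 (-0.43) and Gad1 (-0.32), the core genes of GABA transport and synthesis, had a p under 0.05 downward without a call. Dlx5 (-0.60) was not called, but was with the replicate block over 20 arrays, where its SE was 0.22 in place of 0.30, not with the block on the 10 WT arrays, and in several other settings, among them quantile normalization (-0.66). Dlx1 (-0.66, SE 0.36), also a homeobox gene of GABA neurons, was called with the block on the 10 WT arrays.

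Markers of neighbouring tissue were high in some arrays. Thalamic genes had 4 of 13 higher (median -0.21), with scores of 1.39 in con replicate 2 and 1.10 in stress replicate 5 against -0.83 to 0.13 in the other 8. Prkcd, described above, was lowest there (-1.10, SE 0.69). Zic1 (-0.97, SE 0.53) was called with the block on the 10 WT arrays. Choroid plexus genes had 23 of 26 higher (median 0.40), which was -0.08 without stress replicate 4, whose score of 2.35 compares with -0.76 to 0.24 in all others. Ace, which the plexus expresses strongly, was 9.72 in that array and 6.81 to 7.62 in the other stress arrays. Hypothalamic and medial amygdala genes had 11 of 28 higher (median -0.05, with Peg10 at -0.80, SE 0.43), cilia and ependyma genes 6 of 32 (median -0.16), meningeal genes 17 of 30 (median 0.01) and endothelial and mural genes 11 of 23 (median -0.03), with 0 called among the probe sets counted (for Dnah3 the probe set not called). Anxa1 differed by -0.03 (SE 0.35), whereas the paper's real-time PCR reported it as significantly lower in WT stress. The part of these tissues in the calls that were lost without stress replicate 4 was not tested.

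Glial, respiratory and ribosomal lists had 0 calls. Astrocyte genes had 2 of 18 higher (median -0.12, and 0.04 without stress replicate 1), and Slc1a3, the glutamate transporter GLAST, was lower in 5 of 5 pairs (-0.38, SE 0.14, exact permutation p = 0.0794). Oligodendrocyte genes had 6 of 20 higher (median -0.05), and microglial genes 14 of 19 (median 0.05), with Gpr34 at 0.29. Respiratory chain genes had 9 of 62 higher and ribosomal protein genes 10 of 52, both with a median of -0.07 that was -0.02 without con replicate 1. Both red blood cell genes with a probe set were near 0. Stress replicate 1 and con replicate 1 correlated least with the other arrays of the series (median r of 0.961 and 0.978, against 0.98 or more for the others).

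Because 5 mice per group is few, each count was repeated with arrays left out. Without con replicate 1, 113 probe sets were called higher and 110 lower, and without stress replicate 2 the counts were 98 and 30. Without con replicate 4, 38 were called higher and 3 lower, and without both arrays numbered 4 the counts were 25 and 0, of which 17 had been called before. Without both arrays numbered 1, the pair that stands apart, they were 111 and 64. Of the 69 calls 19 were kept without every single array, 2 of them outside the study's list (Neurod6 and the second Ano3 probe set), and 11 were kept in all 15 sets of left-out arrays. Of the 32 calls outside the list, 20 were lost without stress replicate 4, 15 without stress replicate 5 and 27 without both arrays numbered 4.

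**Figure D5:**
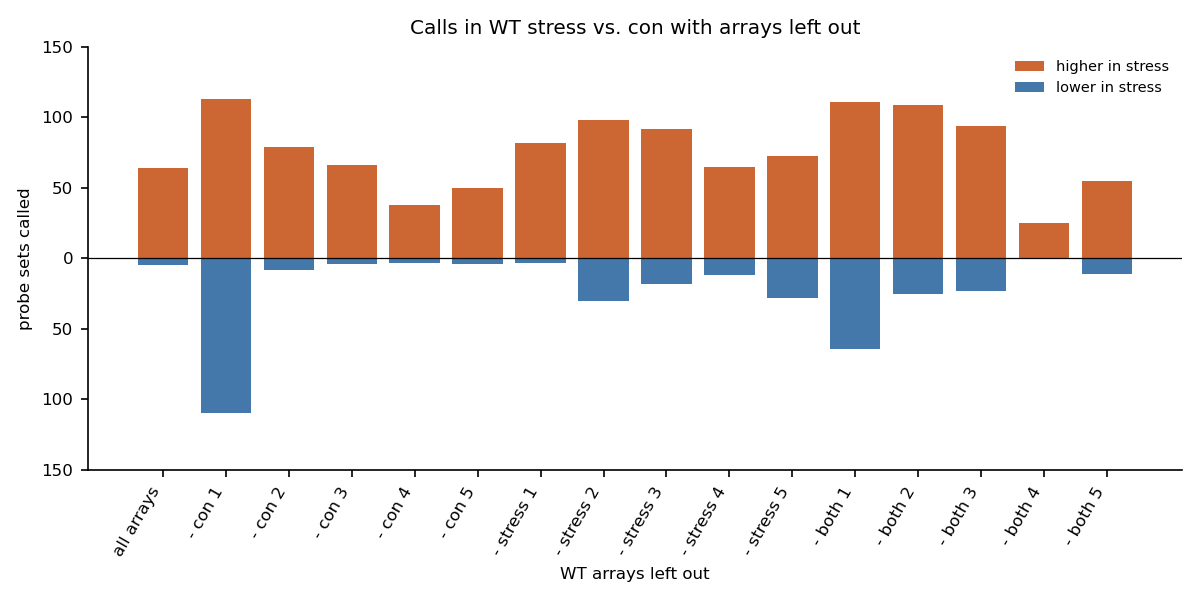
Number of probe sets called (y axis) higher (upward bars) and lower (downward bars) in WT stress with all arrays and with the named WT arrays left out (x axis, "both" meaning the con and the stress array of that number). The bars range from 113 and 110 without con replicate 1 to 25 and 0 without both arrays numbered 4.

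In KO mice under the same conditions, 18 of the 69 called probe sets had a difference of the same direction and 0 were called in it, where 46.8% of all probe sets had the same sign in both genotypes. Of all probe sets 0.136% were called higher and 0.00348% lower in KO stress. The 64 called higher in WT had a KO median of -0.13, 46 of them negative, against 51.1% of all probe sets. The test of the difference between the genotypes (limma interaction) gave an unadjusted p under 0.05 for 49 of the 69 and for 16 of the 32 outside the study's list, against 2.52% of all probe sets, and 0 at an adjusted p under 0.05 over all probe sets. The probe sets were chosen on the WT difference that enters this test, so nothing is read from these counts. Of the genes outside the list, Adarb2 differed by -0.50 in KO (SE 0.27), where the interaction had an unadjusted p under 0.05. Neurod6 differed by 0.35 (SE 0.62), where it had not. Atf6, not called in WT, had a KO difference of -0.06 (SE 0.11).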

How the data were processed

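Whole-transcript gene arrays (Affymetrix Mouse Gene 1.0 ST) measured amygdala RNA of 20 mice. Per the methods, the authors used ArrayAssist to summarize and normalize the probe signals (ExonRMA), followed by variance stabilization and logarithms. The deposited values, from 4.09 to 14.24, were treated as log2, a base inferred from that range. The platform annotation names 1 symbol for 21776 probe sets, several for 1618 and none for 5373. The ArrayAssist version and the genome build were not given in the sources used here. Values were used without further scaling. WT stress was compared with WT con by limma (version 3.58.1, R 4.3.3), with 4 group means over 20 arrays (16 residual and 2.1 prior degrees of freedom), and p-values were adjusted by Benjamini-Hochberg over 28767 probe sets. For single genes a two-sided exact permutation test of 5 against 5 arrays (smallest p 0.00794) was added. Lists used the probe set of highest mean per gene, for 19933 genes. The fit was tested on simulated data.

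Equal replicate numbers were taken as pairs, since deviations from the group means correlated at 0.162 to 0.42 in the 5 pairs, although neither labels nor methods explain the numbers. Con replicate 4 correlated best with stress replicate 5, and each other con array with the stress array of its own number. The genes named were drawn from all called probe sets outside the study's list (14 with all values), the 6 smallest p on it, the 6 largest complete separations in each direction, the 6 smallest p of negative sign, the 3 largest differences of each list (not all printed) and 6 genes of earlier interest. Of these, Adra2a has no symbol in the annotation used here and was followed as probe set 10464030. The counts of 1 list are not reported here. Members and lists were chosen with earlier results of these data known. Alternatives were the methods' t-test, WT arrays alone, the replicate block, quantile normalization, centred medians, a mean of at least 6, 1 symbol only, trend with robust, array weights, linear folds and left-out arrays. The labels call the samples biological replicates, and the number of arrays limits the precision.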

Additional observations from a re-analysis of the deposited data

Results flagged for a closer look

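In 13 of 112 groups of 5 arrays examined (part of the named probe sets, and cell type scores), 1 array lay far from the other 4. Its gap exceeded 0.71 of the range, and chance alone gives about 1 in 20 such groups. Neighbouring genes and scores share arrays, so these groups are not independent. Named probe sets that were not examined held such arrays too, among them Ryr1 with con replicate 1 (7.21 against 6.28 to 6.38).

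Among the examined genes that were called outside the study's list, con replicate 2 was high for M5C1000I18Rik (6.75 against 6.15 to 6.32, gap ratio 0.716). Stress replicate 5 was low for Sgk3 (7.08 against 8.31 to 8.46, ratio 0.889), so that the other 4 stress arrays agreed closely. Stress replicate 1 was low for Doc2b (8.29 against 9.46 to 9.94, ratio 0.711). Con replicate 4 was low for Gm10590 at the 2 of its probe sets that were examined (8.11 against 8.61 to 8.76, ratios 0.769 and 0.770). Its probe sets that were not examined were low in that array too (8.11 and 8.12). For probe set 10464030, which is on that list, stress replicate 1 was low (6.11 against 6.68 to 6.79, ratio 0.826).

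Of the remaining genes, Ccdc121 was high in con replicate 5 (7.02 against 6.63 to 6.72, ratio 0.769), Smc1b in stress replicate 2 (5.14 against 5.10, ratio 0.979) and Ace in stress replicate 4 (9.72 against 6.81 to 7.62, ratio 0.722). The thalamic score was high in stress replicate 5 (1.10 against -0.83 to -0.35, ratio 0.751), the astrocyte score low in stress replicate 1 (-0.74 against -0.01 to 0.24, ratio 0.745), and con replicate 3 was high in the endothelial score (0.64 against -0.31 to -0.05, ratio 0.726) and the meningeal score (1.14 against -0.34 to -0.23, ratio 0.926).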

How the results depend on the processing

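The counts of 64 probe sets called higher and 5 lower depended on the arrays and on the scaling. The methods' t-test called 37 and 2. The replicate block called 75 higher and 11 lower with all 20 arrays, where all 69 calls were kept, and 56 and 19 with the 10 WT arrays alone, where 52 were kept (51 in the WT arrays alone without the block). Neurod6, Ptgs2 and Prdm8 were among the calls lost in that WT fit, and Cacng5, Kcnh3, Kcnj4, Dlx1 (-0.66), Zic1 (-0.97) and Nr4a2 (0.79) were gained among the probe sets named. Among the probe sets named, the block over 20 arrays added the calls of Cacng5, Dlx5, Kcnh3 and Kcnj4 and changed no other call. The lower count was 19 after quantile normalization, 18 with centred medians and 30 with array weights. Without single arrays or pairs the higher count ran from 25 to 113 and the lower count from 0 to 110. The count at an adjusted p under 0.05 was 0 in each of these settings. Over the 163 probe sets followed through the alternatives, 0 calls reversed, 424 of the comparisons lost a call, 122 gained one and 3366 kept their side. List medians stayed within the spread between arrays in 607 comparisons and moved beyond it in 5, all for the serotonin genes (from -0.03 to between 0.04 and 0.07). The causes were not tested. The number of arrays, 5 in a group, limits the precision of each value.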
